A study of Mus musculus with 9 samples.

Results

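The 10 genes described here encode p53, several products of its targets and the cell cycle regulators commonly read beside them, namely Trp53, Mdm2, Ccng1, Trp53inp1, Cdkn1a, Cdkn1b, Ccnd1, Gadd45a, Gdf15 and Sesn2. They were taken by symbol from a table of 24421 genes, all 10 were present, and all 10 were among the 15583 genes that passed the filter on low values. The table holds RNA sequencing of proximal tubular epithelial cells of 9 mice, 3 in each of 3 groups. All mice carried CreERT2 in the Slc34a1 locus and the R26tdTomato reporter, received 5 injections of tamoxifen (3 mg each) from 8 weeks of age, and had their tdTomato-positive, DAPI-negative cells sorted from the kidney cortex. The *db/db* mice lack a working leptin receptor and become obese and hyperglycemic, the *db/m* mice are heterozygous non-diabetic controls, and the *db/db*-dapa mice, called treated below, are *db/db* mice that drank dapagliflozin, an inhibitor of the glucose transporter SGLT2, at 1.5 mg/kg/day for 8 weeks. The untreated *db/db* mice received vehicle. The sample labels give the strain as C57BL/6 and the tissue as kidney, so the sorting is taken from the methods of the study. The reporter marks cells in which Slc34a1 was active when tamoxifen was given, and any cells descended from them. Age at collection and sex are not given in the sources used here.

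p53 is a transcription factor that is held at a low level by Mdm2, its ubiquitin ligase, and is released when DNA is damaged, nutrients run short or the cell is otherwise stressed. It then switches on genes that stop the cell cycle, repair DNA or kill the cell, and it also switches on Mdm2, which closes a feedback loop. The best known arrest gene is Cdkn1a, whose product p21 blocks cyclin-dependent kinases, and in the kidney p21 and arrested tubular cells are known from acute injury and from diabetes. p53 itself is governed mainly at the level of the protein, so its activity is usually read from the RNA of its targets. Some of these genes answer to other pathways as well: Gdf15 and Sesn2 are induced by ATF4, the transcription factor of the integrated stress response, and Gadd45a by several kinds of stress.

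The promoters show which of the members carry a p53 motif next to their start sites. RefSeq sequence of GRCm38.p6, the same build as mm10, was held for 8 of the 10 members (not Ccnd1 and Trp53inp1), and the 250 bases before each start site were searched on both strands. The p53 half-site was matched as the 10 letters RRRCWWGYYY, and a full site was a pair of half-sites at most 13 bases apart. In these letters R is A or G, W is A or T, and Y is C or T. These members had 10 such windows, and 5 of the 10 held a half-site, 1 each of Trp53, Cdkn1a, Mdm2, Ccng1 and Gadd45a, against 7.13% of all 32851 windows in the table. The windows of Cdkn1b, Gdf15 and Sesn2 held none, which says only that these letters are not in this stretch. The first Cdkn1a window was 1 of 21 windows, 0.0639% of all, that held a full site. Its half-sites lie 73 to 64 and 51 to 42 bases before the start. The window of the other Cdkn1a start site (chr17:29093519-29093768) held no half-site. The first window of Cdkn1a (chr17:29090729-29090978, plus strand) and those of Mdm2 (chr10:117710759-117711008, minus strand) and Ccng1 (chr11:40755287-40755536, minus strand) are printed 5′ to 3′ as examples. Half-sites are in capitals.
Cdkn1a: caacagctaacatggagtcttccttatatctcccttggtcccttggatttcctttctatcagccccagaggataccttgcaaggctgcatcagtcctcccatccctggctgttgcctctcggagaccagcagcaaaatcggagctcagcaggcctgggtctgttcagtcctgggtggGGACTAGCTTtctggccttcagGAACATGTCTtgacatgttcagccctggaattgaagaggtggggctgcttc
Mdm2: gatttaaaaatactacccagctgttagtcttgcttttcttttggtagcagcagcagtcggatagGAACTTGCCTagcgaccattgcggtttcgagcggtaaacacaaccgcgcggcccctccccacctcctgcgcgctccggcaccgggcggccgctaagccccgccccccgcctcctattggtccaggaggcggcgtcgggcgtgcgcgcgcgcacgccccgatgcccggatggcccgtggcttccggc
Ccng1: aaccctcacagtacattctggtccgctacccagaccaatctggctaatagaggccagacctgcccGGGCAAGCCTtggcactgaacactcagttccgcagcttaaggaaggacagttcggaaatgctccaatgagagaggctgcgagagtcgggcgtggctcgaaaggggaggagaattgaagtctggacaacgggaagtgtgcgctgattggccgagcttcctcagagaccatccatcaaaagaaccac
The half-site was GGACTTGCCC in the Trp53 window, 75 to 66 bases before the start (chr11:69580284-69580293), and GGGCTAGCCC in the Gadd45a window, 40 to 31 bases before it (chr6:67037438-67037447). The amino acid response element TGATGNAA, a motif bound by ATF4, was in 0 of the 10 windows and in 3.45% of all windows. CCAAT, a common promoter motif, was in 7 of the 10 windows and in 33.8% of all windows. These matches describe letters, not binding, which was not measured. Sequence outside these windows was not searched, so p53 sites elsewhere in any of these genes would not be seen.

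The libraries held 2733349 to 9033123 estimated counts. The shallowest was *db/db* replicate 1, and the 3 *db/db*-dapa libraries held 6981225, 7626107 and 9033123. Values are given as counts per 1000000 counts of a library (CPM), scaled between libraries by TMM, and a gene passed a comparison at an adjusted p under 0.1 by the quasi-likelihood test of edgeR, adjusted after Benjamini and Hochberg over all 15583 genes. Every library was rich in the 10 proximal tubule markers: their summed level was 14264 to 15673 CPM in *db/m*, 14188 to 21237 in *db/db* and 16759.7 to 20829 in *db/db*-dapa mice. The 9 macrophage markers were detected in all mice, at sums of 222 to 506, 137 to 389 and 104 to 337 CPM in the same order. Most of this sum was Cd74, at a mean of 293 CPM in *db/m* and 199 in *db/db* mice. Markers of distal nephron and collecting duct summed to 1171 to 2897, 963 to 1968 and 839 to 1017 CPM, endothelial markers to 58.6 to 140, 72.2 to 209 and 47.4 to 217, and lymphocyte markers to at most 3.40 CPM in any mouse. Podocyte markers reached 249 CPM in 1 *db/db*-dapa mouse and hemoglobin genes 1449.6 in 1 *db/db* mouse, while stromal markers stayed at 25.3 or less. In bulk samples, fewer cells of a type and less RNA per cell cannot be told apart.

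All 10 genes were well above the filter in every mouse, with 57 to 5227 counts. Scaled by the length of the exons in GENCODE's annotation of GRCm38, Ccnd1 stood highest at 92.9 ± 28.1 CPM per kilobase (SD over the 9 mice). Ccng1 (44.8 ± 5.63) and Gadd45a (42.1 ± 21.9) came next and did not differ beyond their spread, and Gdf15 followed at 28.5 ± 11.1, within the spread of Gadd45a. Mdm2 was at 12.7 ± 1.41 CPM per kilobase. The other five lay close together, from Sesn2 at 9.60 ± 3.48 through Trp53 (8.58 ± 1.11), Cdkn1a (8.18 ± 2.64) and Cdkn1b (7.11 ± 1.43) to Trp53inp1 at 6.38 ± 1.70, and from Mdm2 on, neighbours in this order did not differ beyond their spread. The members fell apart more clearly by how much they varied between mice. The highest mouse was 1.42-fold above the lowest for Trp53, 1.49-fold for Mdm2 and 1.503-fold for Ccng1, but 3.14-fold for Gdf15, 3.54-fold for Cdkn1a and 5.29-fold for Gadd45a.

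**Figure D1:**
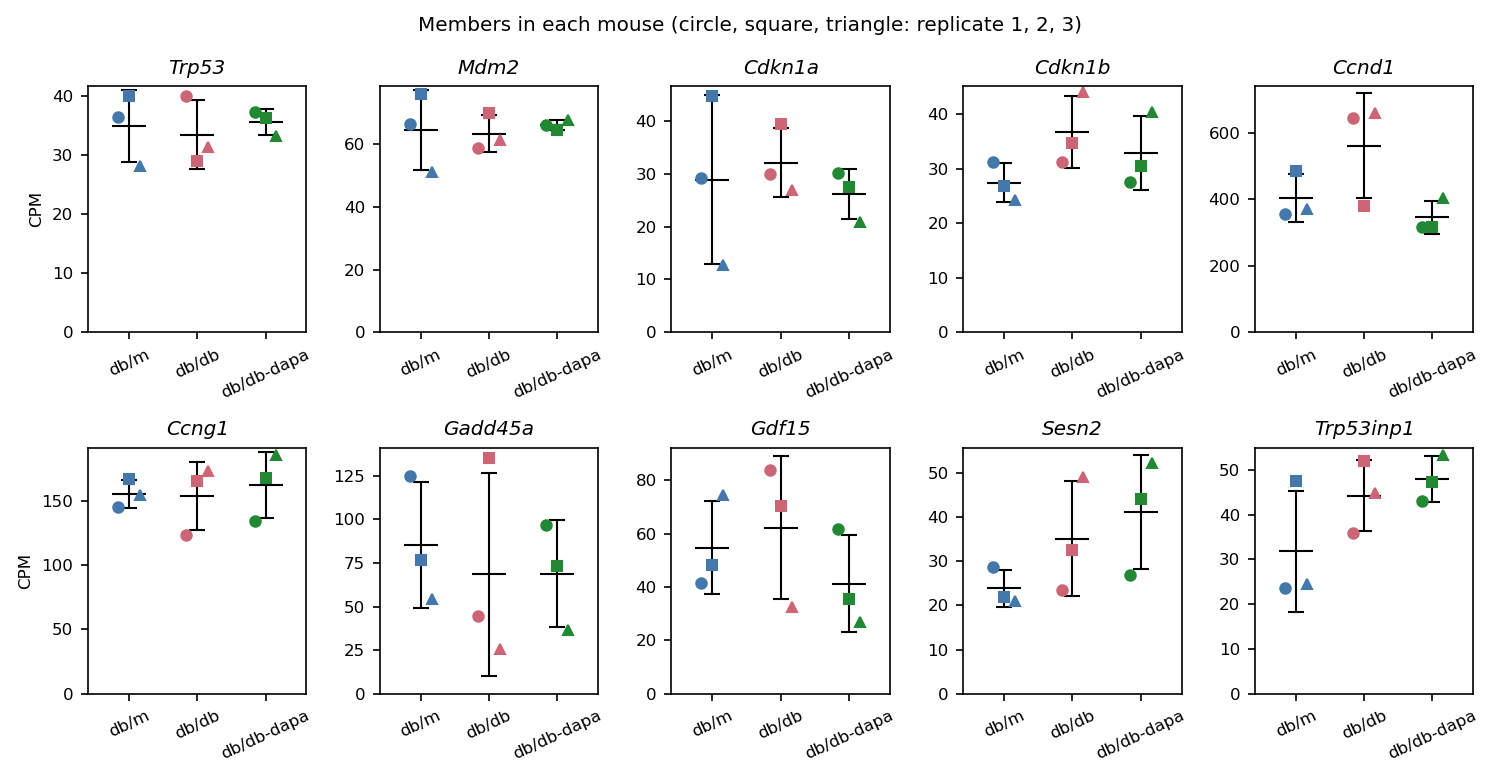
CPM of the 10 genes in each mouse (vertical axis, from 0), by group, with the mean and SD of 3 mice as horizontal and vertical lines. Trp53, Mdm2 and Ccng1 lie close together in all mice, Gadd45a spans 25.5 to 135 CPM, and the groups overlap for every gene in every comparison.

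None of the 10 genes passed in any comparison. In *db/db* against *db/m* mice, 0 of 10 passed, where 1.67% of all genes tested did (261 of 15583). In *db/db*-dapa against *db/m* mice, 0 of 10 passed, against 1.31% of all genes (204). In treated against untreated *db/db* mice, 0 of 10 passed, and 0% of all genes did. Beside shares this low, 0 of 10 does not set the members apart from other genes, and the interval of each difference carries more. DESeq2 also passed 0 members in each comparison (5.11%, 6.39% and 0.135% of all genes), as did limma on log2(CPM + 1) (1.75%, 1.19% and 0% of all genes). limma-voom with a weight for each mouse passed 0, 2 and 1 members, where it passed 2.82%, 31.3% and 5.77% of all genes. At an unadjusted p under 0.05 edgeR gave 0 members in the first comparison (13.7% of all genes), 2 in the second (Sesn2 and Trp53inp1, 18.2% of all genes) and 1 in the third (Ccnd1, 5.19% of all genes). In no comparison was any member without overlap between the groups, whereas 16.4%, 28.1% and 10.2% of all genes were. The 3 comparisons share their groups in pairs, so they are not independent of each other. In each of them 6 members were higher and 4 lower, where 51.6%, 48.5% and 48.7% of all genes were higher. The medians of the members were 0.16, 0.028 and 0.034 on the log2 scale beside 0.020, -0.022 and -0.0094 over all genes.

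**Figure D2:**
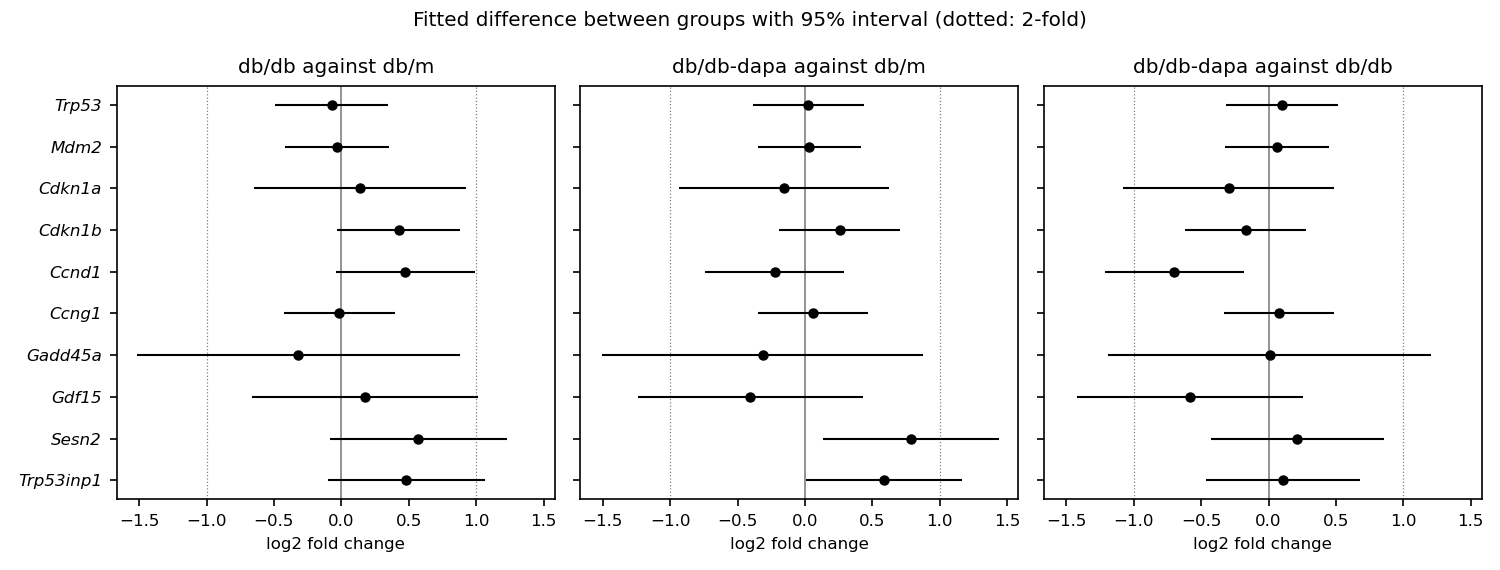
Fitted log2 fold change of each gene (points) with its 95% interval (lines) in the 3 comparisons, with dotted lines at a 2-fold difference. The intervals of Trp53, Mdm2 and Ccng1 lie inside the dotted lines in every panel, and those of Sesn2 and Trp53inp1 in the middle panel and Ccnd1 in the right panel leave out 0 before adjustment.

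Trp53 (chr11:69580359-69591873, plus strand of GRCm38) encodes p53 itself. It was at 36.5, 40.1 and 28.2 CPM in *db/m* replicates 1, 2 and 3, at 40.1, 29.0 and 31.3 in *db/db* and at 37.3, 36.4 and 33.3 in *db/db*-dapa mice. The *db/m* and *db/db* mice covered nearly the same range, and the treated mice lay closer together inside it. By edgeR, *db/db* differed from *db/m* mice by -0.073 on the log2 scale (95% interval -0.49 to 0.34, adjusted p = 0.895), and *db/db*-dapa from *db/db* mice by 0.099 (-0.31 to 0.51, adjusted p = 0.929).

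Mdm2 (chr10:117688875-117710758, minus strand), the ubiquitin ligase of p53 and one of its targets, was the steadiest member beside Trp53. Its values were 66.6, 76.2 and 51.1 CPM in *db/m*, 58.8, 70.0 and 61.3 in *db/db* and 66.3, 64.5 and 67.6 in *db/db*-dapa mice. The treated mice differed from each other by less than the mice of either other group, and all of them lay within the range of *db/m*. The fitted differences by edgeR were -0.029 in *db/db* against *db/m* (95% interval -0.42 to 0.36), 0.031 in *db/db*-dapa against *db/m* (-0.35 to 0.41) and 0.061 in treated against untreated *db/db* mice (-0.32 to 0.44), with adjusted p values of 0.959, 0.939 and 0.957. In fold terms the widest of these bounds were 0.750 and 1.36.

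Ccng1 (chr11:40748552-40755311, minus strand) encodes cyclin G1, a p53 target that brings a phosphatase to Mdm2. It was at 145, 167 and 154 CPM in *db/m*, at 123, 165 and 173 in *db/db* and at 134, 168 and 185 in *db/db*-dapa mice. In both *db/db* groups replicate 1 was lowest and replicate 3 highest, and the *db/m* mice lay between. No difference between groups exceeded 0.076 on the log2 scale, and the 95% intervals ran from -0.42 to 0.48 at the widest (adjusted p by edgeR of 0.983, 0.878 and 0.945 in the order above). The sign of these small differences turned with the scaling of the libraries or with 1 mouse left out for Mdm2 and Ccng1 in every comparison and for Trp53 in those with *db/m* mice, but not for Trp53 between the *db/db* groups.

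Trp53inp1 (chr4:11156431-11174379, plus strand), whose nuclear product is induced by p53 and promotes its activity, was at 23.6, 47.5 and 24.4 CPM in *db/m* mice. It was at 36.0, 52.0 and 44.8 CPM in *db/db* and at 43.0, 47.4 and 53.3 in *db/db*-dapa mice. All 6 *db/db* mice, treated or not, were above *db/m* replicates 1 and 3, but *db/m* replicate 2 lay among them. The fitted difference from *db/m* mice was 0.48 in *db/db* (SE 0.27, 95% interval -0.10 to 1.06, adjusted p = 0.458 by edgeR) and 0.59 in *db/db*-dapa mice (SE 0.26, 0.010 to 1.17, unadjusted p = 0.0466, adjusted p = 0.270 by edgeR). Without *db/m* replicate 2 the second was 0.996 with an adjusted p of 0.113 by edgeR, and with a weight for each mouse in limma-voom it passed (0.70, adjusted p = 0.0387), as did 31.3% of all genes there. Treated and untreated *db/db* mice differed by 0.11 (95% interval -0.47 to 0.68).

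Cdkn1a (chr17:29090976-29100727, plus strand) encodes p21, the cyclin-dependent kinase inhibitor through which p53 arrests cells in G1. Its level was 29.3, 44.8 and 12.7 CPM in *db/m* mice, 29.9, 39.4 and 26.9 in *db/db* mice and 30.1, 27.6 and 20.8 in *db/db*-dapa mice. The *db/m* mice held both the highest and the lowest of the 9 values, and every diabetic mouse lay between these. Group means were 28.9 ± 16.1, 32.1 ± 6.53 and 26.2 ± 4.80 CPM (SD, n = 3 each). The fitted difference was 0.14 in *db/db* against *db/m* (95% interval -0.64 to 0.92, adjusted p = 0.894 by edgeR) and -0.29 in treated against untreated *db/db* mice (-1.08 to 0.49, adjusted p = 0.886 by edgeR). The first was 0.60 without *db/m* replicate 2 and -0.22 without *db/m* replicate 3. These intervals reached 1.90-fold in the first comparison and 0.474-fold in the second, so changes of up to that size lie within them. The gene model shares 273 exonic bases with a gene on the other strand, and whether the counting used strand is not stated.

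Cdkn1b (chr6:134920401-134925513, plus strand) encodes p27, a related kinase inhibitor that is set largely by the stability of the protein and is not a classical p53 target. It was at 31.3, 26.9 and 24.2 CPM in *db/m* mice, 31.3, 34.8 and 44.2 in *db/db* mice and 27.5, 30.5 and 40.5 in *db/db*-dapa mice. *db/db* replicate 1 lay just below *db/m* replicate 1, and the other two *db/db* mice were above all *db/m* mice. By edgeR the difference was 0.43 in *db/db* (SE 0.21, 95% interval -0.029 to 0.88, adjusted p = 0.394) and 0.26 in *db/db*-dapa against *db/m* mice (-0.19 to 0.71, adjusted p = 0.501).

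Ccnd1 (chr7:144929931-144939925, minus strand) encodes cyclin D1, which drives G1 as the partner of Cdk4 and Cdk6 and so works against the inhibitors above. It was at 356, 486 and 371 CPM in *db/m* mice. In *db/db* mice it was at 646, 379 and 660 CPM, and in *db/db*-dapa mice at 318, 316 and 405 CPM. *db/db* replicates 1 and 3 were the highest of all 9 mice, *db/db* replicate 2 lay among the controls, and 2 of 3 treated mice were below every other mouse. Treated were lower than untreated *db/db* mice by a fitted -0.70 on the log2 scale, or 0.616-fold (SE 0.24, 95% interval -1.22 to -0.18, unadjusted p = 0.0124), which did not pass (adjusted p = 0.854 by edgeR). This was the smallest unadjusted p of the 30 tests of the members. The difference lay between -0.92 without *db/db* replicate 2 and -0.55 without *db/db* replicate 3. Against *db/m* mice the difference was 0.47 in *db/db* (-0.041 to 0.99, adjusted p = 0.405 by edgeR) and -0.22 in *db/db*-dapa mice (-0.74 to 0.29, adjusted p = 0.612 by edgeR). Ccnd1 shares 1100 exonic bases with a gene on the other strand, listed in the table as Oraov1 at 14.0 to 21.1 CPM. Its value was not a whole number in 6 of 9 mice, and how reads were divided between overlapping genes is not stated.

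Gadd45a (chr6:67035096-67037457, minus strand), whose product acts in DNA repair and in arrest at the G2 stage, varied most. Its level was 125, 76.6 and 54.4 CPM in *db/m*, 44.9, 135 and 25.5 in *db/db* and 97.1, 73.3 and 36.4 in *db/db*-dapa mice. The *db/db* group alone spanned the whole range of the 9 mice. The interval of its difference was accordingly the widest of the members, from -1.52 to 0.88 around -0.32 in *db/db* against *db/m* and from -1.19 to 1.20 around 0.0077 in treated against untreated *db/db* mice, so in the latter a 2-fold change in either direction lies within the interval. The 18 immediate-early genes, which dissociation of a tissue is known to induce, summed to 6200 to 7969 CPM in *db/m*, 5251 to 10704 in *db/db* and 6598 to 11028 in *db/db*-dapa mice, and 0 of the 18 passed in any comparison. Their sum was highest in *db/db* replicate 2 and in the treated replicate 1, the mice in which Gadd45a was highest within each group. The part of these genes in the level of Gadd45a was not tested. Gadd45a shares 337 exonic bases with the non-coding E230016M11Rik on the other strand (7.69 to 20.6 CPM).

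Gdf15 (chr8:70629393-70632456, minus strand) encodes a secreted cytokine of cell stress. It was at 41.4, 48.3 and 74.4 CPM in *db/m* mice, 83.9, 70.4 and 32.5 in *db/db* mice and 61.9, 35.3 and 26.7 in *db/db*-dapa mice. Each group held a mouse at 41.4 CPM or less and another at 61.9 or more, so the groups overlapped throughout. The fitted difference was 0.18 in *db/db* against *db/m* (95% interval -0.66 to 1.01, adjusted p = 0.870 by edgeR) and -0.58 in treated against untreated *db/db* mice (-1.42 to 0.26, adjusted p = 0.854 by edgeR). With a weight for each mouse in limma-voom the second was -0.95 and passed (adjusted p = 0.0985), as did 5.77% of all genes against 0% by edgeR.

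Sesn2 (chr4:132492032-132510501, minus strand) encodes sestrin 2, a sensor of leucine and an inhibitor of mTORC1 that is induced by p53, by ATF4 and by oxidative stress. It was at 28.7, 21.8 and 21.1 CPM in *db/m* mice. In *db/db* mice it was at 23.5, 32.6 and 49.1 CPM, and in *db/db*-dapa mice at 27.0, 44.1 and 52.3 CPM. Replicates 2 and 3 of both diabetic groups were above every *db/m* mouse, while replicate 1 of each lay within the range of *db/m*. The difference from *db/m* mice was 0.57 in *db/db* (SE 0.30, 95% interval -0.086 to 1.23, adjusted p = 0.427 by edgeR). In *db/db*-dapa mice it was 0.78, or 1.72-fold (SE 0.30, 0.13 to 1.43, unadjusted p = 0.0225), and did not pass (adjusted p = 0.224 by edgeR). It passed under 3 alternatives, when only these 2 groups were fitted (adjusted p = 0.0961 by edgeR), without *db/db* replicate 3 (0.0850 by edgeR) and in limma-voom with a weight for each mouse (0.0292). In these settings 9.57%, 10.6% and 31.3% of all genes passed, against 1.31% with all 9 mice in edgeR, so the gain was not particular to Sesn2. Its adjusted p by edgeR was 0.124 to 0.579 when a mouse of the 2 groups compared was left out. Treated and untreated *db/db* mice differed by 0.21 (-0.43 to 0.86, adjusted p = 0.898 by edgeR).

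Individual mice stood out in several of these profiles. *db/m* replicate 3 was the lowest of 9 mice for Trp53, Cdkn1a, Cdkn1b, Mdm2 and Sesn2, and *db/m* replicate 2 the highest for Trp53, Cdkn1a and Mdm2. The third mouse of each diabetic group stood together across several members: *db/db* replicate 3 and the treated replicate 3 held the 2 highest values of Sesn2 and of Cdkn1b and the 2 lowest of Gadd45a and of Gdf15. The same mice had the highest sums of proximal tubule markers, at 21237 and 20829 CPM, where every other mouse had at most 18054. They also had the lowest sums of macrophage markers, at 137 and 104 CPM, where every other mouse had at least 180.0. The macrophage sum depends largely on Cd74, as given above. The part of other cell types, depth or the yield of the sort in the levels of Sesn2, Cdkn1b, Gadd45a and Gdf15 was not tested. None of the 10 proximal tubule, 9 macrophage or 11 distal nephron and collecting duct markers passed in any comparison, but their directions were uneven. In *db/db*-dapa against *db/m* mice 0 distal markers were higher and 11 lower (median -1.26 on the log2 scale). There, 9 proximal tubule markers were higher and 1 lower (median 0.37), and 1 macrophage marker was higher and 8 lower. In treated against untreated *db/db* mice 11 distal and 9 macrophage markers were lower and 0 higher, with proximal tubule markers at 6 higher and 4 lower. In *db/db* against *db/m* mice 6 macrophage markers were higher and 3 lower (median 0.50), with Cd74 among the lower (-0.56).

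**Figure D3:**
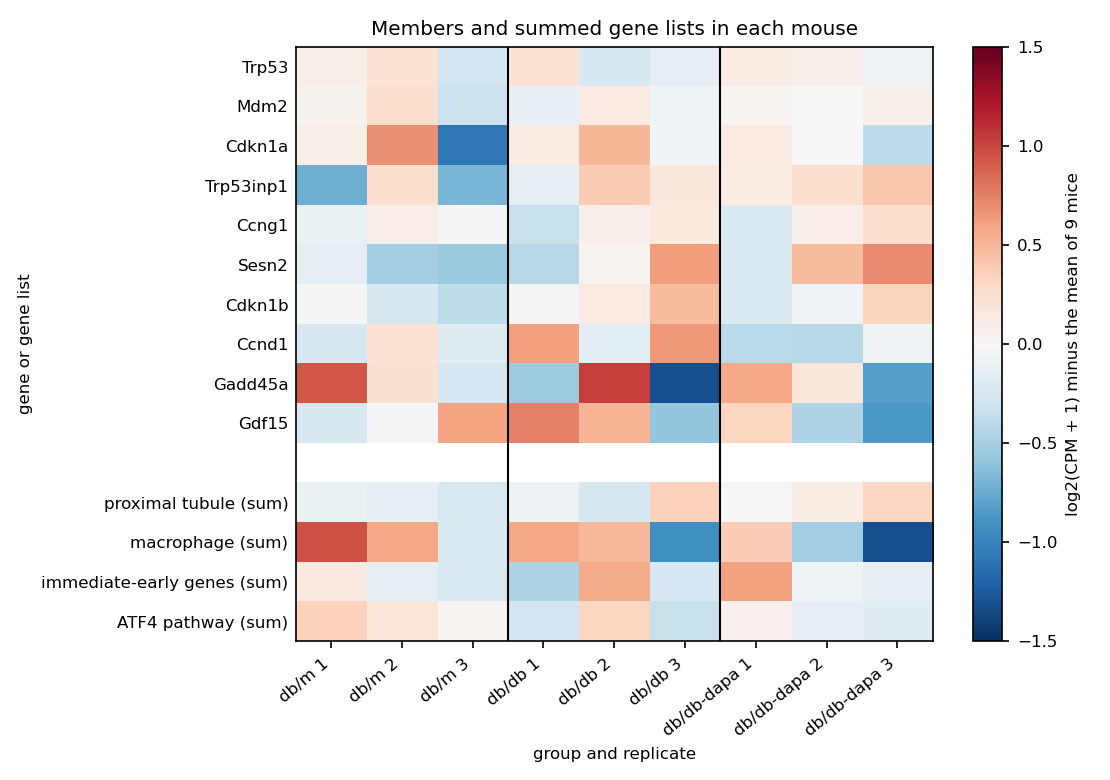
Level of each gene in each mouse as log2(CPM + 1) minus its mean over 9 mice (colour), with 4 summed gene lists below shown the same way and black lines between the 3 groups. Sesn2 and Cdkn1b are high and Gadd45a and Gdf15 low in replicate 3 of both diabetic groups, where the macrophage sum is lowest. On average in *db/m* and *db/db* mice, most of the macrophage sum was Cd74.

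The profile of Cdkn1a over the 9 mice was compared with that of every gene at a mean of 10 CPM or more, as the root-mean-square difference of centred log2(CPM + 1). The 5 nearest of 9134 candidates were Nfkb2 (0.235), Rhbdf2 (0.243), Fosl2 (0.246), Tmem184c (0.247) and Kdm6b (0.247). Nfkb2 encodes a subunit of NF-kB, Fosl2 an AP-1 transcription factor and Kdm6b a histone demethylase. None of them was a member or on a list of p53 targets. Among the members Mdm2 ranked nearest, at place 117 with a difference of 0.359, ahead of Trp53 at 432 and Trp53inp1 at 992, while Sesn2, Gadd45a and Gdf15 ranked between 7548 and 7914. This measure also counts how far a gene swings, so a gene that varies more can rank far off in the same order of mice. The Spearman correlation with Cdkn1a over the 9 mice was 0.65 for Gadd45a and 0.62 for both Mdm2 and Trp53. It was 0.33 for Gdf15 and -0.28 for Sesn2. The Pearson correlation was 0.43 for Gadd45a, 0.83 for Mdm2 and 0.53 for Trp53. The median difference over all candidates was 0.564, and Cdkn1a differed by 0.476 from its own mean.

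Of 29 other p53 targets, all were tested and 0 passed in any comparison. In *db/db* against *db/m* mice 13 were higher and 16 lower, with a median of -0.042 on the log2 scale, and in *db/db*-dapa against *db/m* mice 10 were higher and 19 lower (median -0.23). The split was again 10 to 19 in treated against untreated *db/db* mice (median -0.18). The smallest p in the first comparison belonged to Sesn1, a relative of Sesn2, at 6.14, 7.50 and 10.9 CPM in *db/m* and 13.6, 15.0 and 12.4 in *db/db* mice. These groups did not overlap, and the difference was 0.75 (SE 0.26, adjusted p = 0.237 by edgeR). Cd82, a membrane protein of the tetraspanin family, had the smallest p in *db/db*-dapa against *db/m* mice, at -0.999 (SE 0.31, adjusted p = 0.172 by edgeR), with 39.5, 34.4 and 53.3 CPM in *db/m* and 30.2, 15.5 and 17.9 in treated mice. Plk3, a stress-responsive kinase, had it between treated and untreated *db/db* mice (-1.498, SE 0.60, adjusted p = 0.854 by edgeR), where *db/db* replicate 2 alone stood at 384 CPM and the other eight mice at 41.6 to 146.

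Among 17 regulators of p53, 16 were tested and 0 passed. Crebbp, a histone acetyltransferase that also acetylates p53, had the smallest p against *db/m* mice. It was at 20.2, 20.4 and 8.66 CPM in *db/m*, at 30.2, 33.4 and 51.4 in *db/db* and at 21.4, 48.4 and 41.6 in *db/db*-dapa mice. All 6 *db/db* mice were above all *db/m* mice, the closest by a small margin, and the differences were 1.22 (SE 0.37, adjusted p = 0.178 by edgeR) and 1.17 (SE 0.37, adjusted p = 0.176 by edgeR). Between treated and untreated *db/db* mice it was Chek2, a DNA damage kinase, at 0.73 (SE 0.31, adjusted p = 0.854 by edgeR).

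Of 19 other inhibitors of the cell cycle, 18 were tested and 0 passed. Rb1, the retinoblastoma protein that holds back E2F factors, came closest to a call of all the genes on the p53 and cell cycle lists in *db/db*-dapa against *db/m* mice. It was at 23.0, 31.2 and 22.6 CPM in *db/m* mice, at 39.1, 37.8 and 51.8 in *db/db* mice and at 38.9, 45.3 and 56.4 in *db/db*-dapa mice. Neither *db/db* group overlapped with *db/m*. The differences were 0.75 (SE 0.21, 95% interval 0.28 to 1.22, adjusted p = 0.160 by edgeR) and 0.87 (SE 0.21, 0.41 to 1.33, adjusted p = 0.110 by edgeR). The smallest p between treated and untreated *db/db* mice was that of Cdkn1c, the kinase inhibitor p57, at 1.04 (SE 0.71, adjusted p = 0.854 by edgeR), where *db/db*-dapa replicate 1 alone reached 16.2 CPM and the other mice at most 5.60.

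The genes that drive the cycle gave no call either. Of 14 cyclins, kinases and factors of G1, 9, 12 and 10 were higher in the 3 comparisons in the order above, with medians of 0.11, 0.31 and 0.18, and 0 passed. E2f2, a transcription factor of S phase entry, had the smallest p against *db/m* mice in both groups, at 1.05 (SE 0.52, adjusted p = 0.401 by edgeR) and 1.74 (SE 0.50, adjusted p = 0.149 by edgeR), from 6 to 8 counts in *db/m* and 18 to 47 in *db/db*-dapa libraries. E2f1 had it between the *db/db* groups, at 0.88 (SE 0.35, adjusted p = 0.854 by edgeR). Of 20 genes of proliferating cells, 5, 12 and 16 were higher, with medians of -0.21, 0.19 and 0.31, and 0 passed. They were low throughout: all 20 together summed to 189 to 235 CPM in any mouse. Birc5, the mitotic protein survivin, was at 4.41, 4.19 and 4.88 CPM in *db/m*, at 2.38, 1.40 and 1.01 in *db/db* and at 2.98, 2.10 and 2.49 in *db/db*-dapa mice. These groups did not overlap with *db/m*, and the differences were -1.57 (SE 0.42, adjusted p = 0.128 by edgeR) and -0.83 (SE 0.38, adjusted p = 0.279 by edgeR), on 7 to 28 counts per library. Ccnb1, the mitotic cyclin B1, had the smallest p between the *db/db* groups, at 1.66 (SE 0.68, adjusted p = 0.854 by edgeR), on 2 to 5 counts in *db/db* and 10 to 23 in *db/db*-dapa libraries.

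The ATF4 pathway was read because Gdf15 and Sesn2 also answer to it. Of its 20 genes 19 were tested and 0 passed, with 6 higher and 13 lower in each comparison with *db/m* mice (medians -0.34 and -0.46) and 9 higher and 10 lower between the *db/db* groups (median -0.016). Psat1, an enzyme of serine synthesis, had the smallest p in *db/db* against *db/m* mice, at -0.58 (SE 0.22, adjusted p = 0.286 by edgeR). Mthfd2, an enzyme of mitochondrial folate metabolism, had it in the other two comparisons, at -1.38 (SE 0.41, adjusted p = 0.167 by edgeR) and -0.97 (SE 0.43, adjusted p = 0.854 by edgeR), on 11 to 36 counts per library.

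**Figure D4:**
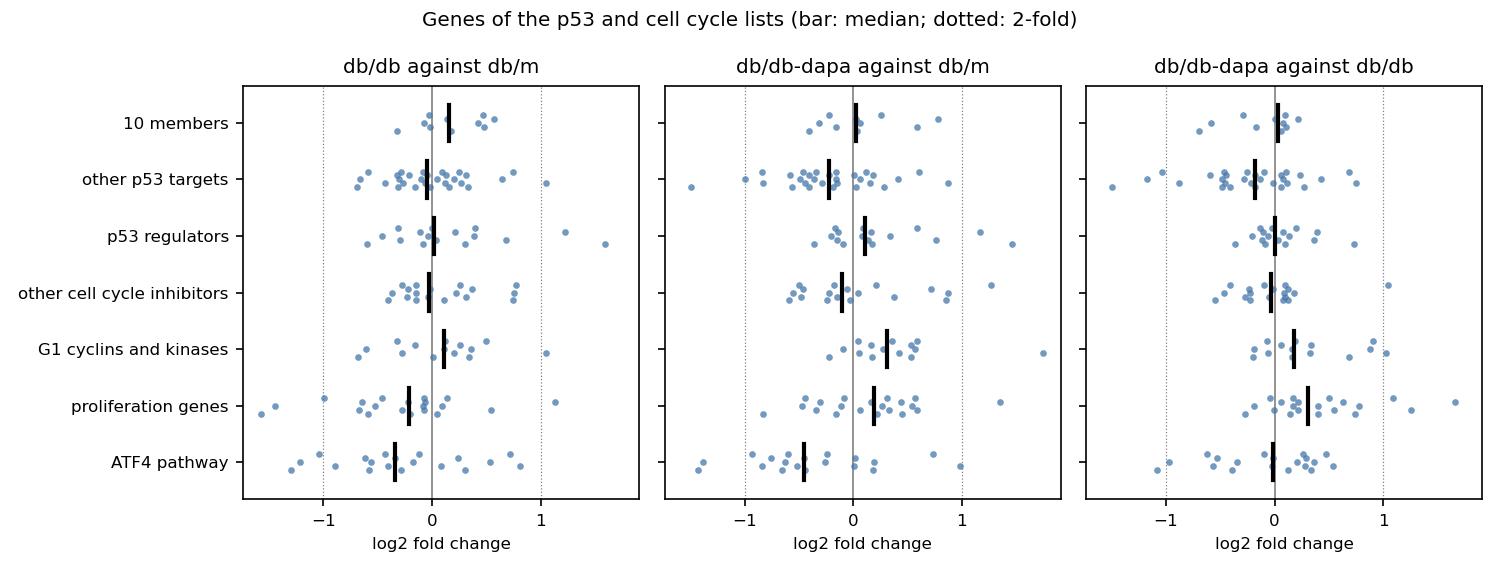
Fitted log2 fold change of each gene (points) of the 10 members and of 6 lists in the 3 comparisons, with the median of each list as a bar and dotted lines at a 2-fold difference. No gene shown passed, and the medians of the lists lie between -0.46 and 0.31.

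Of 7 genes of tubular injury, 0 passed, and 1, 2 and 4 were higher. Their sum was 813 to 1056 CPM in *db/m*, 859 to 2031 in *db/db* and 1068 to 1498 in *db/db*-dapa mice, mostly from Spp1, the matrix protein osteopontin, which had the smallest p in *db/db*-dapa against *db/m* mice (0.74, SE 0.29, adjusted p = 0.230 by edgeR). Krt20, a keratin of injured tubules, had the smallest p in the other two comparisons (adjusted p = 0.187 and 0.854 by edgeR). Its libraries held only 5 to 60 counts in *db/m*, 0 to 4 in *db/db* and 5 to 44 in treated mice, so no fold is given. Krt20 was lower in *db/db* than in *db/m* mice, and these groups did not overlap. In that comparison the 1 higher injury gene was Spp1 (0.90, SE 0.29, adjusted p = 0.207 by edgeR), and 6 were lower. Among the immediate-early genes the smallest p belonged to Hspa1b, a heat-shock chaperone with a near-identical neighbour, at -0.75 (adjusted p = 0.446 by edgeR) and 1.03 (adjusted p = 0.854 by edgeR) in the first and the third comparisons. In the second it belonged to Ier3, an early response gene, at -1.06 (SE 0.37, adjusted p = 0.206 by edgeR).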

How the data were processed

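Poly(A) RNA of sorted tdTomato-positive cells was sequenced as stranded single-end libraries. According to the methods and the submitters' processing notes, the authors mapped reads to mm10 with TopHat2 2.0.13, Bowtie2 2.2.3 and SAMtools 0.1.19 and calculated FPKM with Cufflinks 2.2.1. The deposited table is named FPKM but holds estimated counts: 85.9% of the values above 0 were whole, and columns summed to 2733349 to 9033123. How these counts were made, the annotation and the use of strand are not given in the sources used here. Groups and replicate numbers follow the sample titles, and 0 columns were unused.

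Estimated counts were rounded to whole numbers and tested in R 4.3.3 with edgeR 4.0.16 (quasi-likelihood test in its earlier form, TMM scaling) in 1 fit of all 9 mice, over genes at 0.3 CPM or more in at least 2 mice. A gene passed at an adjusted p (Benjamini-Hochberg) under 0.1, and in the 3 comparisons 194, 164 and 0 genes were also past 2-fold. The study, by edgeR at FDR under 0.1 and over 2-fold, did report some genes between treated and untreated *db/db* mice. The reason for this difference was not tested. Standard errors were derived from the F value. Alternatives were DESeq2 1.42.0, limma 3.58.1 and limma-voom, other scalings, filters and pseudocounts, the 2 groups alone, a replicate block and each mouse left out. The test was also run on simulated data in which every gene had the same dispersion. The real genes differ in their spread, so that run does not show how the test performs on them. A sample is 1 mouse. The p-values test differences between groups against the spread between mice, and depth limits precision by counting error.

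The members and gene lists were chosen with earlier results of these data known. All members are named. Of each list the genes that passed, or else the one with the smallest p, are named, besides the 5 genes nearest to Cdkn1a. Marker lists were summed in each mouse, and their genes were tested like all others.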

Additional observations from a re-analysis of the deposited data

How the results depend on the processing

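The number of members that passed was 0 in all 3 comparisons, except that it was 2 (Sesn2 and Trp53inp1) in *db/db*-dapa against *db/m* and 1 (Gdf15) in treated against untreated *db/db* mice with limma-voom and a weight for each mouse, and 1 (Sesn2) in *db/db*-dapa against *db/m* mice with only the 2 groups compared. With 1 mouse left out it was 0 to 1, the 1 being Sesn2 without *db/db* replicate 3. The number of all genes that passed, 261, 204 and 0, moved more: it was 797, 996 and 21 with DESeq2 and 439, 4883 and 899 with limma-voom, 117 and 1492 in the first and second comparisons with only the 2 groups compared, and 368 in the second without a filter. With 1 mouse left out it ran from 86 (without *db/m* replicate 1) to 302, from 14 (without *db/db*-dapa replicate 2) to 1652 (without *db/db* replicate 3) and from 0 to 419 (without *db/db* replicate 3). The cause was not tested. Scaling by the library total alone moved the median of all genes in *db/db* against *db/m* mice from 0.020 to 0.13 on the log2 scale, with 233 higher and 114 lower genes in place of 124 and 137.

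The replicate block gave 222, 187 and 0 genes and 0 members, and changed no call of a member. Mice with the same number in different groups had deviations that correlated at -0.32 to 0.56, and mice with other numbers at -0.61 to 0.36. Between the *db/db* groups the same-number values were 0.40, -0.16 and 0.56 for replicates 1, 2 and 3. The sample titles state no pairing or batch, so the main fit did not pair the mice. Whether the numbers mark a shared batch was not tested.

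Of the members' differences under the other settings, 372 kept their sign and their side of the threshold, 4 passed newly and 14 turned sign, all of the latter small. These were Cdkn1a in *db/db*-dapa against *db/m* mice (0.010 and 0.017 in limma at pseudocounts of 1 and 0.1). In the same comparison they were Trp53 (-0.026 in limma-voom, -0.024 by upper-quartile scaling) and Mdm2 (-0.034 and -0.020). Between the *db/db* groups they were Gadd45a (-0.13 in limma-voom, -0.060 by upper quartile, -0.032 by library total) and Mdm2 (-0.0061 by upper quartile, -0.00069 by library total). By library total they were also Trp53 (0.033), Mdm2 (0.070) and Ccng1 (0.088) in *db/db* against *db/m* mice.

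With 1 mouse left out, 26 of the members' differences turned sign, 1 passed newly and 243 did neither. In *db/db* against *db/m* mice the ranges that crossed 0 were -0.21 to 0.037 for Trp53, -0.22 to 0.60 for Cdkn1a, -0.18 to 0.11 for Mdm2, -0.11 to 0.12 for Ccng1, -1.31 to 0.083 for Gadd45a and -0.093 to 0.49 for Gdf15. In *db/db*-dapa against *db/m* mice they were -0.11 to 0.14 for Trp53, -0.51 to 0.30 for Cdkn1a, -0.12 to 0.17 for Mdm2, -0.033 to 0.19 for Ccng1 and -0.63 to 0.070 for Gadd45a. Between the *db/db* groups they were -0.34 to 0.0028 for Cdkn1b, -0.058 to 0.20 for Ccng1, -0.39 to 0.99 for Gadd45a and -0.014 to 0.24 for Trp53inp1. With 3 mice a group and 57 to 5227 counts per gene, the width of the intervals given sets the precision of each difference.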
